A study of Mus musculus with 4 samples.

Results

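The lipid-associated macrophage genes examined here are 10 genes chosen by symbol: Trem2, Spp1, Gpnmb, Cd9, Cd63, Fabp4, Fabp5, Lpl, Tyrobp and Lgals3. Each matched 1 row among the 32285 genes listed for single cells of mouse liver. Their levels were followed across macrophage subsets, monocytes, dendritic cells and the other cells of the digest, and across the diet and treatment groups.

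Macrophages that take up lipid in fatty liver, obese adipose tissue or atherosclerotic plaque switch on a shared set of genes. TREM2 is a surface receptor for lipids and lipoproteins that signals through the adaptor DAP12, encoded by Tyrobp, and the cells that carry it also express genes for lipid breakdown and transport (Lpl, Fabp4, Fabp5), for endosomal and lysosomal membrane proteins (Gpnmb, Cd63) and for secreted proteins that act on matrix and fibrosis (Spp1, Lgals3). In liver the resident macrophages are the Kupffer cells, marked by Clec4f and Timd4, and monocytes arriving from blood give rise to further macrophages during steatohepatitis.

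The study compared livers of male C57BL/6J mice on a normal chow diet (NCD, 1 library), on a high-fat diet (HFD, 2 libraries) and on that same diet with daily oral Jiangtang Qingre Formula (JQF, 1 library), a Chinese herbal formula. The JQF mice thus shared the diet of the HFD mice, and the NCD and HFD mice received distilled water in place of the formula. The paper states that dosing began only after weeks of high-fat diet had raised body weight and blood glucose. Perfused livers were digested, red cells were lysed and dead cells were removed before droplet capture with a 3′ kit. The labels name hematopoietic stem cells and immune cells, whereas the libraries also held endothelial, epithelial and liver parenchymal cells. NCD and JQF had a single library each, so the spread between replicates came from the HFD pair alone.

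After cells with under 500 genes or over 20% mitochondrial UMIs (unique molecular identifiers, each 1 captured transcript) were left out, 5975 NCD cells, 6516 and 10259 HFD cells and 8540 JQF cells remained, with median depths of 7608 to 13081 UMIs. Pairs of libraries shared 12 to 27 cell barcodes. Cells were gated on raw UMIs of marker genes that did not include any of the 10 genes, which gave 108 NCD, 515 and 2016 HFD and 375 JQF macrophages, as well as 48, 664, 1071 and 472 monocytes and 107, 640, 666 and 631 dendritic cells in the same order. The levels below are summed UMIs of a gene in a cell class over all UMIs of that class, expressed as CPM, and a share of cells with a UMI is given after each cell was thinned to 2000 UMIs, with intervals that cover counting error only. Because UMIs came from the 3′ end, levels are compared between cells and not between genes.

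The make-up of the macrophage class differed between libraries. Of the NCD macrophages 87.0% (exact 95% interval 79.2 to 92.7%) were Timd4+ cells passing the Kupffer gate, whereas the HFD replicate 1 library had 4 such cells among 515. In the other libraries 459 of 2016 HFD replicate 2 and 177 of 375 JQF macrophages were Timd4+ Kupffer-gated cells. The summed level of the 8 macrophage markers stayed between 11552 and 13211 CPM in the 4 libraries, while that of the 6 Kupffer markers was 9236 CPM in NCD, 3262 and 7364 CPM in HFD and 7166 CPM in JQF. The comparisons of the 10 genes between groups are therefore given in all macrophages and again in Kupffer-gated cells alone, in which the Timd4+ share still differed.

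RNA from outside the cells also differed. Barcodes of 1 to 100 UMIs, which hold free RNA, carried Trem2 at 2.55 CPM in NCD, 133 and 146 CPM in HFD and 30.3 CPM in JQF, and Gpnmb at 0.91, 164, 120 and 26.6 CPM in the same order. B cells, which should lack these genes, show how far that reaches: with median depths of 4904 to 7985 UMIs per library, at most 1.41% of thinned B cells had a Trem2 UMI, at most 0.56% a Gpnmb UMI and at most 2.25% an Lpl UMI. Tyrobp and Lgals3 reached more B cells, up to 9.30% and 7.61%, and Spp1 up to 2.45%.

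All 10 genes are protein coding and their positions are given on GRCm38, the build of the deposited tables, with GENCODE M21 gene models. The receptor gene Trem2 is at chr17:48346401-48354147 on the plus strand and its adaptor gene Tyrobp at chr7:30413760-30417585, also plus. Gpnmb is at chr6:49036546-49070929 (plus) and Cd9 at chr6:125460266-125494791 (minus). The fatty acid binding protein genes lie together on chromosome 3, Fabp5 at chr3:10012548-10016607 (plus) and Fabp4 at chr3:10204088-10208576 (minus). Lpl is at chr8:68880491-68907448, Cd63 at chr10:128900989-128912822 and Lgals3 at chr14:47367751-47386160, each on the plus strand. Spp1, at chr5:104435118-104441050 on the plus strand, overlaps the same-strand GENCODE gene model Gm42793. How reads in the overlap were counted was not checked.

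The 250 bases before the RefSeq start (GRCm38.p6) are shown for the receptor gene Trem2, for Gpnmb, which was read together with it in single cells below, and for the first start of Spp1, which had no UMI in NCD macrophages. A RefSeq window was found for 6 of the 10 genes, with 7 starts in all (Spp1 has a pair of them). The windows of Fabp4, Fabp5, Lpl and Tyrobp are not shown. Capitals mark a match to 1 of the motifs searched on both strands. They were the E-box CACGTG, the M-box TCATGTG, the AP-1-type site TGANTCA (N being any base) and the ETS-type site GAGGAAGT.
Trem2, chr17:48346151-48346400, plus strand: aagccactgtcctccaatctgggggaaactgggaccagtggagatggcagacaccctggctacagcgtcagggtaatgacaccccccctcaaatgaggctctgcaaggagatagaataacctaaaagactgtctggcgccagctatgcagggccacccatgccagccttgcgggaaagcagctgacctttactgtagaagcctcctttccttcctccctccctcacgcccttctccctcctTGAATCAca
Spp1, chr5:104434861-104435110, plus strand: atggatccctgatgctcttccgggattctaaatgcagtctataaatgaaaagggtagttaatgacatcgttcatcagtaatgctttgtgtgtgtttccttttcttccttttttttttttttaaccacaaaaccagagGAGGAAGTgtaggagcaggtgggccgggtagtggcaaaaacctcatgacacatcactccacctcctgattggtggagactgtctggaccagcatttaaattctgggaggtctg
Gpnmb, chr6:49036268-49036517, plus strand: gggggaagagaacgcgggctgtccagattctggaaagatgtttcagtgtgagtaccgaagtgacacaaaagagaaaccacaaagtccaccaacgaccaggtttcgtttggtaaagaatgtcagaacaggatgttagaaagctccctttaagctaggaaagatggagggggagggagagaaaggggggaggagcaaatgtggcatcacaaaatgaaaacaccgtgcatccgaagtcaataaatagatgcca
The AP-1-type letters in the Trem2 window, with A at the open position, begin 9 bases before the start. A match with any base at that position occurs in 6.75% of 32851 mouse promoter windows of this length. The ETS-type letters in the Spp1 window begin 113 bases before the start and occur in 2.44% of windows. The E-box and M-box letters, in 6.02% and 3.25% of all windows, were not found in the 7 windows. These matches describe letters in a window, not binding.

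The first comparison asked how the genes differed between HFD and NCD macrophages, the cells the set is named for. All 10 genes had a higher level in both HFD libraries than in the NCD library, and 8 of the 10 passed the test in that direction (edgeR quasi-likelihood test, Benjamini-Hochberg adjusted p below 0.05 over 12808 genes), against 7.75% of all genes tested called in either direction. The median log2 fold change was 3.28 over the 10 genes and 0.07 over all genes tested. Trem2, Spp1, Gpnmb, Cd9, Cd63, Fabp4, Fabp5 and Lgals3 rose, and Lpl and Tyrobp did not pass. In NCD macrophages 4 of the 10 genes, Spp1, Gpnmb, Fabp4 and Fabp5, had a UMI in fewer than 1% of thinned cells.

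Trem2, the lipid-sensing receptor, stood at 35.5 CPM in NCD macrophages and at 558 and 281 CPM in the HFD libraries. The HFD libraries lay far above NCD but also differed from each other. Its log2 fold change was 3.64 (SE 0.53, edgeR adjusted p = 0.0404), and the share of thinned macrophages with a Trem2 UMI was 8.57% in NCD (exact 95% interval 3.99 to 15.6%) against 42.9% and 31.1% in HFD. Tyrobp, whose product DAP12 carries the signal of TREM2 and of many other myeloid receptors, was at 1085 CPM in NCD and 1897 and 2041 CPM in HFD. Its difference (log2 fold change 0.95, SE 0.24, edgeR adjusted p = 0.0747) missed the threshold, and most NCD macrophages (77.1%) already had a Tyrobp UMI.

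Spp1 encodes osteopontin, a secreted phosphoprotein that binds integrins and CD44. No Spp1 UMI was counted in 108 NCD macrophages, which allows up to 1.61 CPM, against 276 and 133 CPM in the HFD libraries. The mean of the HFD libraries was at least 126-fold higher (edgeR adjusted p = 0.0369), and the bound from each library alone was 171-fold (replicate 1) and 82.2-fold (replicate 2). Both levels lie below that of free Spp1 RNA in the same libraries, 665 and 228 CPM. The UMIs sat in few cells, 15.1% and 8.84% of thinned HFD macrophages, against 2.45% and 1.41% of thinned B cells there. Lgals3, which encodes the carbohydrate-binding protein galectin-3, was at 461 CPM in NCD and at 2339 and 1600 CPM in HFD (log2 fold change 2.18, SE 0.33, edgeR adjusted p = 0.0410).

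Gpnmb encodes a transmembrane glycoprotein of endosomes and lysosomes. It had 9 UMIs in all NCD macrophages (4.84 CPM) and stood at 670 and 280 CPM in HFD. Its log2 fold change was 6.69 (SE 0.85, edgeR adjusted p = 0.0382), the largest fitted change among the 9 genes with a UMI in every macrophage library. The tetraspanin gene Cd63, a marker of late endosomes, was at 22.6 CPM in NCD and 702 and 460 CPM in HFD (log2 fold change 4.77, SE 0.40, edgeR adjusted p = 0.0289). Cd9, a tetraspanin of the cell surface, was at 41.4 CPM in NCD and 377 and 215 CPM in HFD (log2 fold change 2.92, SE 0.43, edgeR adjusted p = 0.0409). In these 3 genes, as in Trem2, HFD replicate 1 was the higher of the HFD libraries.

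Of the lipid-handling genes, Fabp5 and Fabp4 passed in this comparison and Lpl did not. Fabp5, an intracellular carrier of fatty acids, was at 14.0 CPM in NCD and 436 and 271 CPM in HFD (log2 fold change 4.74, SE 0.45, edgeR adjusted p = 0.0297). Fabp4, the carrier best known from fat cells, was at 13.5 CPM in NCD, with 25 UMIs in 3 cells, and 112 and 68.1 CPM in HFD (log2 fold change 2.82, SE 0.43, edgeR adjusted p = 0.0411), where free RNA held it at 92.5 and 263 CPM. Lpl, the lipase that frees fatty acids from circulating triglyceride, was at 797 CPM in NCD and 1602 and 1386 CPM in HFD. That difference (log2 fold change 0.99, SE 0.23, edgeR adjusted p = 0.0668) missed the threshold, and the share of cells with a UMI hardly moved, from 58.1% in NCD to 63.9% and 64.1%.

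**Figure D1:**
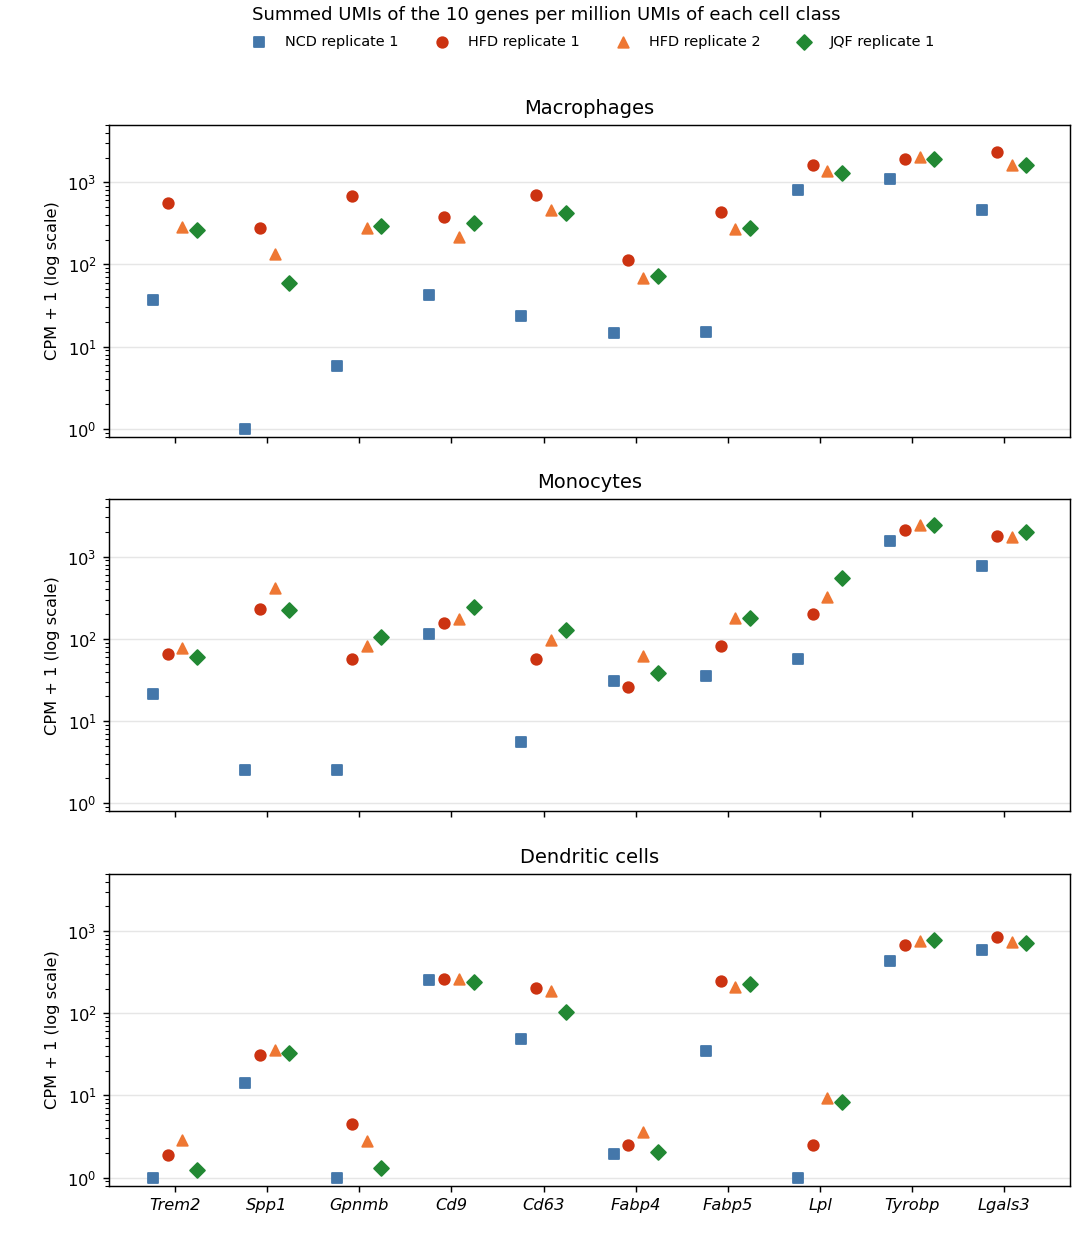
Level of each of the 10 genes (CPM plus 1, log scale) in the summed macrophages, monocytes and dendritic cells, with 1 point per library (NCD, the 2 HFD libraries and JQF). In macrophages the NCD square lies below both HFD points for every gene, with Spp1 at 0 CPM against 276 and 133 CPM, and the JQF diamond lies between the HFD points for 6 of the 10 genes.

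In Kupffer-gated macrophages alone, 98 cells in NCD and 43 and 993 in HFD, all 10 genes were higher in HFD at the same threshold, against 16.9% of all genes tested called in either direction. Trem2 was at 32.5 CPM in NCD Kupffer-gated cells and 469 and 222 CPM in HFD (log2 fold change 3.42, SE 0.40, edgeR adjusted p = 1.19e-07). Spp1 had no UMI in NCD and stood at 123 and 57.7 CPM in HFD, bounds of 69.1-fold and 32.5-fold (50.8-fold for their mean). Gpnmb was at 3.55 CPM in NCD and 337 and 163 CPM in HFD. In these cells the HFD levels of Trem2, Gpnmb and Spp1 were lower than over all HFD macrophages in each library, and higher than in NCD. In both HFD libraries, however, Kupffer-gated cells held Spp1, Fabp4 (25.5 and 39.2 CPM), Fabp5 (158 and 103 CPM) and Cd9 (204 and 179 CPM) below their free RNA level (665 and 228, 92.5 and 263, 200.4 and 241, and 229 and 217 CPM in that order). In NCD, free RNA held Spp1 at 57.3, Fabp5 at 53.9, Cd9 at 87.3 and Fabp4 at 169 CPM, and its part in these calls was not tested. Lpl (868 CPM in NCD, 1813 and 1570 CPM in HFD, log2 fold change 1.00, SE 0.31, edgeR adjusted p = 0.0232) and Tyrobp (1070 CPM against 1979 and 2130 CPM, log2 fold change 0.98, SE 0.31, edgeR adjusted p = 0.0257) passed here as well. Over all macrophages these changes were of like size without passing, 0.99 (SE 0.23) for Lpl and 0.95 (SE 0.24) for Tyrobp. The fit of Kupffer-gated cells borrowed more degrees of freedom from other genes (34.29 against 3.675 over all macrophages). Smaller p-values and more calls here are thus no measure of a clearer change. The Kupffer gate did not equalise the make-up: 94 of 98 NCD cells were Timd4+, against 4 of 43 and 459 of 993 in HFD. In Timd4+ cells alone, with HFD replicate 2 the only HFD library of enough cells and so no test, Trem2 was at 31.4 CPM in NCD and 199.8 CPM in HFD. Gpnmb was at 3.63 and 118 CPM and Fabp5 at 3.63 and 65.7 CPM there. The non-Kupffer cells gave no comparison with NCD, which had 10 of them.

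Markers of other cell types were present in the macrophage sums and differed between libraries. The 6 classical monocyte markers summed to 143 CPM in NCD, 370 and 466 CPM in HFD and 405 CPM in JQF, the B cell markers to 3.77 CPM in NCD and 17.1 to 20.6 CPM in the others, and all 6 markers of the epithelial gate were at 0 in NCD and summed to 1.89 to 6.93 CPM elsewhere. Endothelial markers ran the other way, 424 CPM in NCD and 120 to 242 CPM in the other libraries. The part of these cells in the levels of the 10 genes was not tested.

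The second comparison asked whether JQF macrophages differed from HFD macrophages; it shares the HFD libraries with the first. Of the 10 genes 0 passed the edgeR test, against 0.00781% of all genes tested (1 of 12808), while 1176 of those genes had an unadjusted p below 0.05. In simulated data of this layout the test recovered 93% of genes changed 4-fold and 12% of those changed 2-fold. The simulation gave every gene the same dispersion, unlike the data, so these shares do not give the power of the test here. DESeq2 called Spp1 alone among the 10, as lower in JQF. The JQF level lay between the HFD libraries for 6 of the 10 genes and below both for the other 4. Trem2 was at 262 CPM in JQF (558 and 281 CPM in HFD, log2 fold change −0.65, SE 0.43, edgeR adjusted p = 0.666), Gpnmb at 296 CPM (670 and 280 CPM, −0.65, SE 0.53, adjusted p = 0.716) and Cd9 at 318 CPM (377 and 215 CPM, 0.13, SE 0.35, adjusted p = 0.938).

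Spp1 was the gene whose JQF level lay farthest from the HFD pair, 57.7 CPM against 276 and 133 CPM (log2 fold change −1.79, SE 0.48, edgeR adjusted p = 0.469). Cd63 was at 420 CPM in JQF against 702 and 460 CPM. Without HFD replicate 1 the log2 fold change was −1.21 for Spp1, −0.14 for Cd63 and 0.07 for Gpnmb, each a value with no test because no replicate remained. All JQF levels exceeded those of the NCD library.

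Within Kupffer-gated cells, however, 4 of the 10 genes were lower in JQF than in HFD, against 2.16% of all genes tested called in either direction. This fit too borrowed more degrees of freedom from other genes than that of all macrophages (34.29 against 3.675), so their counts are not directly comparable. Spp1 was at 8.79 CPM in 210 JQF Kupffer-gated cells against 123 and 57.7 CPM in HFD (log2 fold change −3.23, SE 0.40, edgeR adjusted p = 1.57e-06). Fabp4 was at 3.82 CPM against 25.5 and 39.2 CPM (−3.18, SE 0.47, edgeR adjusted p = 4.74e-05). Fabp5 was at 25.2 CPM against 158 and 103 CPM (−2.33, SE 0.30, edgeR adjusted p = 4.40e-06), and Gpnmb at 87.1 CPM against 337 and 163 CPM (−1.49, SE 0.33, edgeR adjusted p = 0.00602). In each of these 4 genes JQF lay below both HFD libraries. The levels of Spp1, Fabp4 and Fabp5 were below those of free RNA in all 3 libraries, where JQF free RNA held them at 354, 81.3 and 85.3 CPM, and the part of free RNA in these calls was not tested. Gpnmb lay above its free RNA level in each. Trem2 itself did not pass (227 CPM against 469 and 222 CPM, edgeR adjusted p = 0.566), nor did Cd63, Cd9, Lpl, Tyrobp or Lgals3. The Kupffer-gated cells were not alike between the groups: Timd4+ cells were 177 of 210 in JQF, 4 of 43 in HFD replicate 1 and 459 of 993 in HFD replicate 2. Within Timd4+ cells of HFD replicate 2 and JQF, given without a test, Fabp5 was at 65.7 and 20.5 CPM, Fabp4 at 22.8 and 2.62 CPM, Spp1 at 17.3 and 8.74 CPM and Gpnmb at 118 and 89.1 CPM. Within Timd4- cells, of which JQF had 33, Spp1 was at 137 and 89.1 CPM in HFD and 9.10 CPM in JQF, and Fabp5 at 174 and 132 CPM and 57.7 CPM. The split of the macrophages was added after the data were seen, and the part of the Timd4 make-up in the 4 calls was not tested.

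In the non-Kupffer macrophages, 472 and 1023 cells in HFD and 165 in JQF with NCD left out, 0 of the 10 genes passed the edgeR test for JQF against HFD, against 2.16% of all genes tested, and 3 (Spp1, Lpl and Cd9) had an unadjusted p below 0.05. Spp1 was at 107 CPM in JQF against 292 and 205 CPM (log2 fold change −1.14, SE 0.24, edgeR adjusted p = 0.0684), and Lpl at 766 CPM against 1578 and 1209 CPM (−0.80, SE 0.22, edgeR adjusted p = 0.145). Cd9 went the other way, at 506 CPM in JQF against 396 and 250 CPM (0.72, SE 0.26, edgeR adjusted p = 0.239). Fabp4 and Fabp5, lower in Kupffer-gated JQF cells, stood at 139 CPM (122 and 96.0 CPM in HFD) and 532 CPM (467 and 432 CPM) here, above both HFD libraries. Whether the change differed between Kupffer-gated and other macrophages was not tested.

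**Figure D2:**
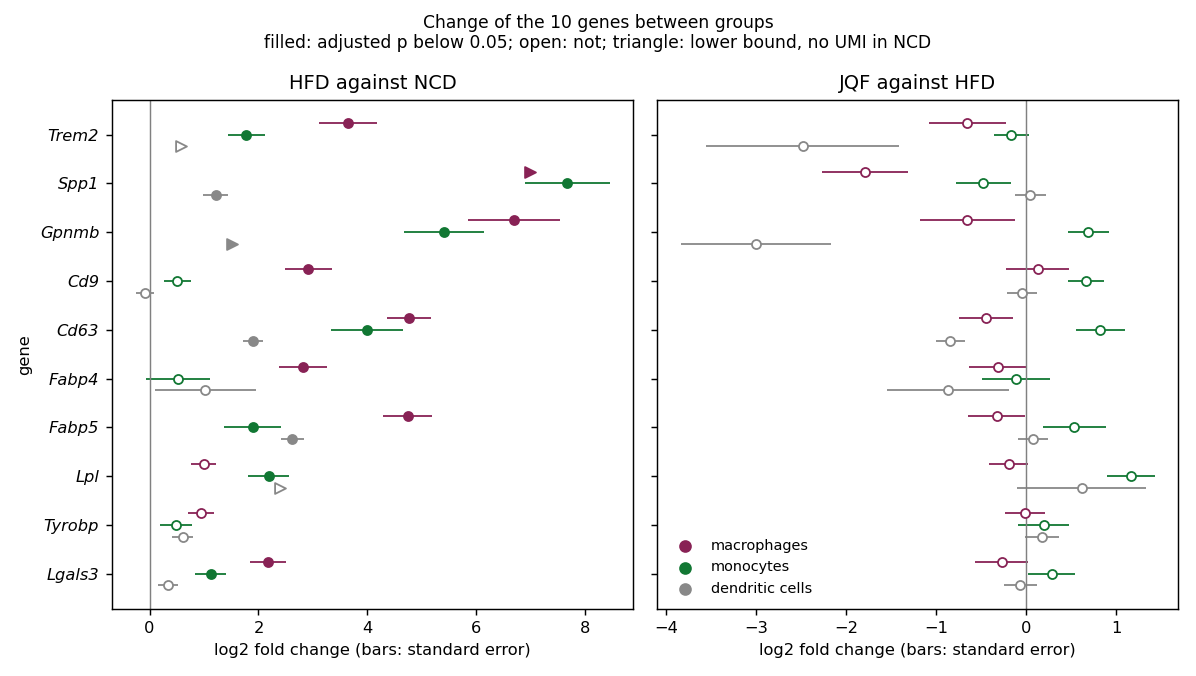
Fitted log2 fold changes of the 10 genes for HFD against NCD (left) and JQF against HFD (right) in macrophages, monocytes and dendritic cells, with standard errors as bars; filled points had an adjusted p below 0.05 and triangles mark a lower bound where NCD had no UMI. In macrophages 8 of 10 points are filled on the left, from 2.18 for Lgals3 to a bound of 6.98 for Spp1, and 0 are filled on the right.

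Monocytes carried the same genes at lower levels for most of them, and 7 of the 10 were higher in HFD than in NCD monocytes, against 15.7% of 12497 genes called in either direction (median log2 fold change 1.84 over the 10 genes and 0.20 over all). The NCD library had 48 monocytes, so several NCD values rest on a few UMIs. Nonclassical cells were 47.9% of NCD monocytes but 11.0% and 12.98% of HFD monocytes, and the part of this shift in the changes was not tested. In classical monocytes alone (25 NCD cells, no test) Spp1 was at 2.54 CPM in NCD and 256 and 470 CPM in HFD, and Lpl at 78.8 CPM and 221 and 346 CPM. Over all monocytes, Spp1 had 1 UMI in NCD monocytes (1.54 CPM) and 233 and 420 CPM in HFD, a pooled ratio of 227 with a counting interval of 40.8 to 8982 (edgeR adjusted p = 0.000139). Its HFD monocyte level was of the same order as in HFD macrophages, and 7.48% and 10.6% of thinned HFD monocytes had an Spp1 UMI.

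Gpnmb, also with 1 UMI in NCD monocytes, was at 55.2 and 80.7 CPM in HFD (pooled ratio 46.2, counting interval 8.28 to 1826, edgeR adjusted p = 0.000711). Cd63 had 3 UMIs in NCD monocytes and stood at 55.9 and 96.0 CPM in HFD (pooled ratio 17.5, counting interval 5.99 to 85.2, edgeR adjusted p = 0.00231). Trem2 rose from 20.1 CPM to 65.0 and 77.3 CPM (log2 fold change 1.78, SE 0.34, edgeR adjusted p = 0.00459). The lipase gene Lpl, unlike in all macrophages, passed in monocytes, at 55.5 CPM in NCD and 201 and 319 CPM in HFD (log2 fold change 2.19, SE 0.38, edgeR adjusted p = 0.00281). Fabp5 (33.9 CPM, then 80.0 and 178 CPM, edgeR adjusted p = 0.0301) and Lgals3 (778 CPM, then 1764 and 1754 CPM, edgeR adjusted p = 0.0188) also rose, Fabp5 without a call in DESeq2 (adjusted p = 0.226) or after Scrublet (edgeR adjusted p = 0.0525). Cd9 (113 CPM, then 156 and 176 CPM), Fabp4 (29.3 CPM, then 25.1 and 60.4 CPM) and Tyrobp (1554 CPM, then 2102 and 2417 CPM) did not pass, and for Fabp4 the groups overlapped. Of the 7 genes called, Trem2, Gpnmb, Cd63, Fabp5 and Lpl lay below their free RNA level in both HFD libraries and Spp1 in replicate 1, and the part of free RNA in these changes was not tested.

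For JQF against HFD monocytes 0 of the 10 genes passed the edgeR test, against 0.720% of all genes tested, with 1422 genes at an unadjusted p below 0.05; DESeq2 called 0 of the 10 as well. Lpl came nearest, at 546 CPM in JQF against 201 and 319 CPM in HFD (log2 fold change 1.16, SE 0.27, edgeR adjusted p = 0.0780). Gpnmb (103 CPM), Cd9 (244 CPM) and Cd63 (127 CPM) were also above both HFD libraries without passing. Classical and nonclassical monocytes differed in which genes they carried. In HFD, Spp1 was at 256 and 470 CPM in classical monocytes against 31.8 and 19.3 CPM in nonclassical ones, and Fabp4 ran the other way, 12.9 and 45.4 CPM against 132 and 179 CPM.

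Dendritic cells shared part of the pattern at far lower levels for the receptor genes. In HFD against NCD dendritic cells 4 of the 10 genes were higher, against 25.0% of all 13736 genes tested called in either direction. Fabp5 was at 33.9 CPM in NCD and 243 and 207 CPM in HFD (log2 fold change 2.62, SE 0.21, edgeR adjusted p = 0.000241), and Cd63 at 48.3 CPM and 203 and 185 CPM (1.90, SE 0.19, edgeR adjusted p = 0.000409). Spp1 was at 13.1 CPM in NCD and 30.1 and 35.1 CPM in HFD (1.21, SE 0.23, edgeR adjusted p = 0.00726). Gpnmb, with no UMI in NCD, reached 3.55 and 1.80 CPM, bounds of 3.80-fold and 1.93-fold (2.86-fold for their mean, edgeR adjusted p = 0.0405). That level lies below the free RNA level of Gpnmb in the same HFD libraries, and the call was lost without scaling, without a gene filter, after Scrublet and with 1 more marker per gate (edgeR adjusted p 0.0697 to 0.506). Spp1 was not called in these cells without a gene filter (edgeR adjusted p = 0.0534) or with DESeq2 (adjusted p = 0.0856), and its level too lies below that of free Spp1 RNA. So does that of Cd63 in both HFD libraries (241 and 262 CPM in free RNA) and that of Fabp5 in replicate 2 (241 CPM). Cd63 and Fabp5 were highest in mature dendritic cells, which were 10.3% of NCD and 23.0% and 25.2% of HFD dendritic cells. In mature cells Fabp5 was at 149 CPM in 11 NCD cells and 897 and 815 CPM in HFD, and Cd63 at 436 CPM and 846 and 748 CPM. For Fabp5, type 1 dendritic cells held 6.30 CPM in NCD and 22.9 and 10.9 CPM in HFD.

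For JQF against HFD dendritic cells 0 of the 10 genes passed the edgeR test, against 0.852% of all genes tested, with 1537 genes at an unadjusted p below 0.05. DESeq2 too called 0 of the 10. Cd63 was lower in JQF, 103 CPM against 203 and 185 CPM, without passing (log2 fold change −0.84, SE 0.16, edgeR adjusted p = 0.0662).

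Set against monocytes of the same libraries, macrophages held more Trem2, Gpnmb, Cd63 and Lpl: 4 of the 10 genes passed in a fit with the library as a block, all higher, against 40.0% of all genes tested called in either direction, so the share of the 10 genes equals the background. Trem2 had a mean of 284 CPM in macrophages and 55.5 CPM in monocytes (log2 fold change 2.09, SE 0.32, edgeR adjusted p = 0.00179). Lpl had 1268 and 281 CPM (2.39, SE 0.39, edgeR adjusted p = 0.00238). Spp1 leaned towards monocytes without passing (log2 fold change −1.23, SE 0.42, edgeR adjusted p = 0.0521). Without the NCD library 8 of the 10 genes passed, 7 higher and 1 lower in macrophages, and 5467 of 11876 genes tested.

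Against dendritic cells, 5 of the 10 genes were higher in macrophages, against 53.9% of all genes tested called in either direction. Here too the count is near the background, but the sizes were large: Trem2 had a mean of 284 CPM in macrophages and 0.755 CPM in dendritic cells (log2 fold change 8.49, SE 0.48, edgeR adjusted p = 2.95e-05), Lpl 1268 and 4.27 CPM (8.31, SE 0.67, edgeR adjusted p = 0.000129), and Gpnmb 313 and 1.41 CPM (7.86, SE 0.42, edgeR adjusted p = 2.44e-05). Fabp4 and Tyrobp were the other genes higher in macrophages. Cd9, Cd63, Fabp5, Spp1 and Lgals3 did not pass. Without NCD 9 of the 10 genes passed, and so did 7696 of 13026 genes tested.

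**Figure D3:**
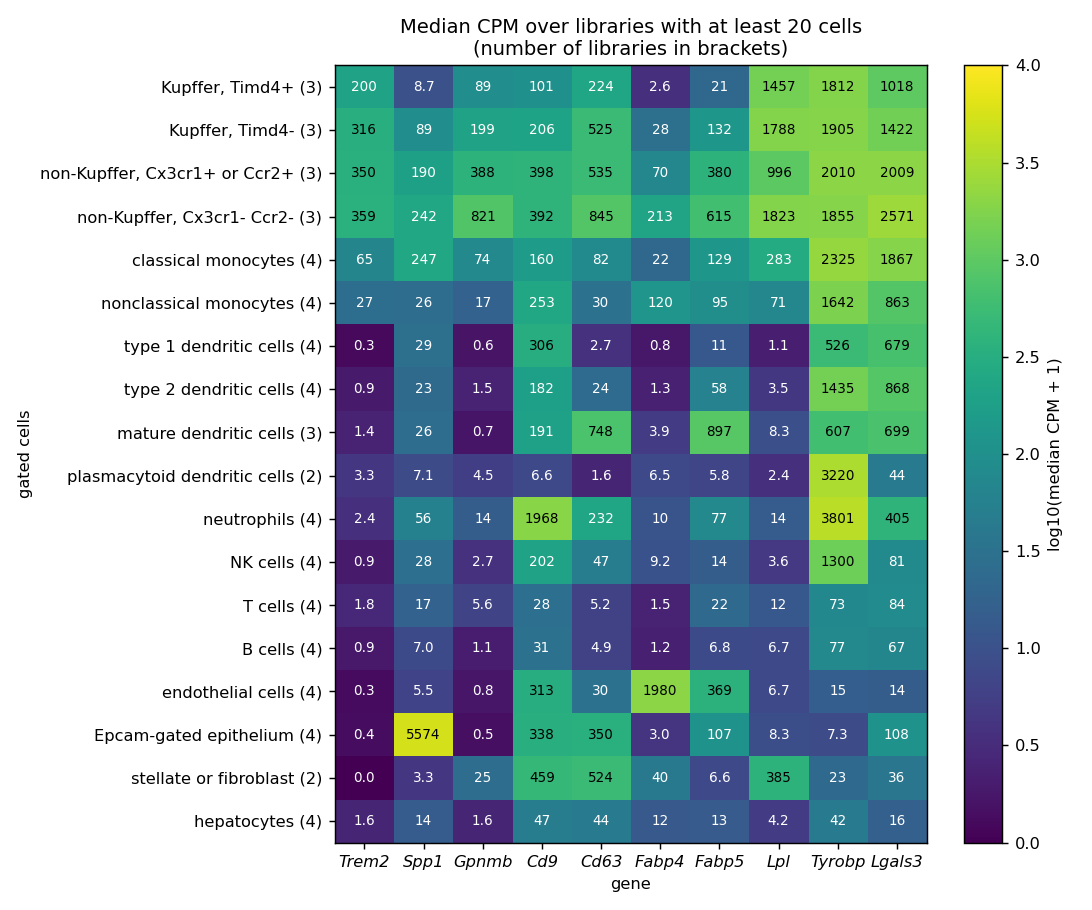
Median CPM of each gene over the libraries with at least 20 cells of a class, as numbers and as colour on a log10 scale, for macrophage, monocyte and dendritic cell subsets and the other gated cells. Trem2, Gpnmb and Lpl are highest in the macrophage rows, whereas Spp1 is highest in the Epcam-gated epithelium, Fabp4 in endothelial cells and Cd9 and Tyrobp in neutrophils.

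Several of the genes are therefore not restricted to macrophages in this tissue. Macrophages supplied 47.5% of all Trem2 UMIs in NCD, where a further 39.6% lay in cells meeting several gates, 82.3% and 76.5% in HFD and 62.2% in JQF. For Lpl the shares were 54.9%, 79.5%, 76.2% and 51.4% in the same order. By contrast, endothelial cells held Fabp4 at 256 CPM in NCD, 3246 and 2587 CPM in HFD and 1374 CPM in JQF, and supplied 59.0 to 84.7% of all Fabp4 UMIs. Neutrophils held Cd9 at 1256 CPM in NCD, 2145 and 2162 CPM in HFD and 1792 CPM in JQF. Cells of the epithelial gate (Epcam, Krt19 and similar markers), whose leading genes included the gastric-type genes Tff1 and Gkn1, held Spp1 at 7416 CPM in NCD, 11650 and 3589 CPM in HFD and 3732 CPM in JQF, and supplied 50.7 to 83.7% of all Spp1 UMIs.

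Among macrophages of the HFD and JQF libraries, the Kupffer-gated cells held less of 5 of the 10 genes than the other macrophages, against 7.40% of 11069 genes called in either direction (library as a block, 3 libraries, NCD left out for its 10 non-Kupffer cells). Fabp5 was lower by a log2 value of −2.58 (SE 0.50, edgeR adjusted p = 0.0286), Fabp4 by −2.45 (SE 0.58, adjusted p = 0.0485), Spp1 by −2.05 (SE 0.38, adjusted p = 0.0252), Gpnmb by −1.61 (SE 0.29, adjusted p = 0.0253) and Lgals3 by −0.75 (SE 0.17, adjusted p = 0.0465). Cd9 (−1.11, SE 0.27, edgeR adjusted p = 0.0553), Cd63 (−0.71, SE 0.19, edgeR adjusted p = 0.0638), Trem2 (−0.43, SE 0.14, edgeR adjusted p = 0.110), Lpl (0.60, SE 0.21, edgeR adjusted p = 0.145) and Tyrobp (−0.01) did not pass. The count depends on single libraries: without HFD replicate 1 it was 1 and without JQF it was 8. The Fabp4 call was also lost without scaling, with DESeq2 and with 1 more marker per gate (adjusted p 0.0540 to 0.0685 in edgeR and DESeq2), and the Lgals3 call with 1 more marker (edgeR adjusted p = 0.30) and a minimum of 10 cells (0.293).

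Levels also differed between finer subsets, given here for Timd4+ Kupffer-gated cells, non-Kupffer cells with Cx3cr1 or Ccr2, and non-Kupffer cells with neither. In HFD replicate 2, the library with the most macrophages, Gpnmb was at 118, 314 and 586 CPM in that order and Fabp5 at 65.7, 358 and 615 CPM. Gpnmb was also higher in the last than in the second of these subsets in HFD replicate 1 (821 against 642 CPM) and in JQF (1217 CPM in 26 cells against 388 CPM). Spp1 did not keep that order: it was at 17.3, 190 and 242 CPM in HFD replicate 2, but at 311 and 260 CPM in the non-Kupffer subsets of HFD replicate 1 and 110 and 90.3 CPM in those of JQF. Trem2 was at 199.8, 350.4 and 309 CPM and Lpl at 1457, 996 and 1738 CPM in HFD replicate 2.

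Within single cells the genes were detected together. At 2000 UMIs per cell, both Trem2 and Gpnmb were found in 0 of 105 NCD macrophages (exact 95% upper limit 3.45%), in 112 of 515 (21.7%, 18.3 to 25.6%) and 210 of 1990 (10.6%, 9.24 to 12.0%) HFD macrophages and in 31 of 365 JQF macrophages (8.49%, 5.84 to 11.8%). The JQF interval overlaps that of HFD replicate 2 and lies below that of HFD replicate 1. The overlap with HFD replicate 2 was lost without thinning and after Scrublet. The Scrublet values rest on a new random draw of UMIs as well as on fewer cells (231 of 1894 HFD replicate 2 cells with both). The part of the draw in this difference was not tested. Unthinned, the NCD share was 2.78%, the HFD shares 52.2% and 33.2% (31.1 to 35.3% for replicate 2) and the JQF share 20.0% (16.1 to 24.4%). After Scrublet it was 12.2% (10.8 to 13.8%) in HFD replicate 2 and 5.98% in JQF, whose interval lay below it. At 2000 UMIs at most 2.12% of monocytes held both, and in dendritic cells and B cells 0. Unthinned, 2.08% of NCD, 5.42% and 7.84% of HFD and 8.90% of JQF monocytes did. So did 1 dendritic cell in each HFD library and 1 B cell each in HFD replicate 2 and JQF.

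By subset, the share with both genes was lowest in Timd4+ Kupffer-gated cells and highest in non-Kupffer cells lacking Cx3cr1 and Ccr2 in both libraries that had enough cells of each. The share ran from 3.52% through 8.38% and 13.2% to 17.9% in HFD replicate 2, where the intervals of the non-Kupffer subsets overlapped. In JQF it ran from 4.60% through 10.0% and 11.8% to 16.0% (4 of 25 cells), with overlapping intervals. HFD replicate 1, with 4 Timd4+ Kupffer-gated cells, had 15.4%, 19.6% and 26.4% in the remaining subsets. Kupffer-gated cells made up 5.36%, 28.6% and 35.5% of the cells with both genes in HFD replicate 1, HFD replicate 2 and JQF, and 11.5%, 57.3% and 60.1% of the cells with neither. The order of the subsets depended on depth. At 1000 UMIs non-Kupffer cells with Cx3cr1 or Ccr2 exceeded those lacking them. The shares were 7.72% and 6.93% in HFD replicate 2 and 7.19% and 3.85% in JQF. In JQF the lowest was then the Timd4- Kupffer-gated subset (0 of 33). Unthinned, HFD replicate 2 had 44.3% and 41.2% in the non-Kupffer subsets.

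**Figure D4:**
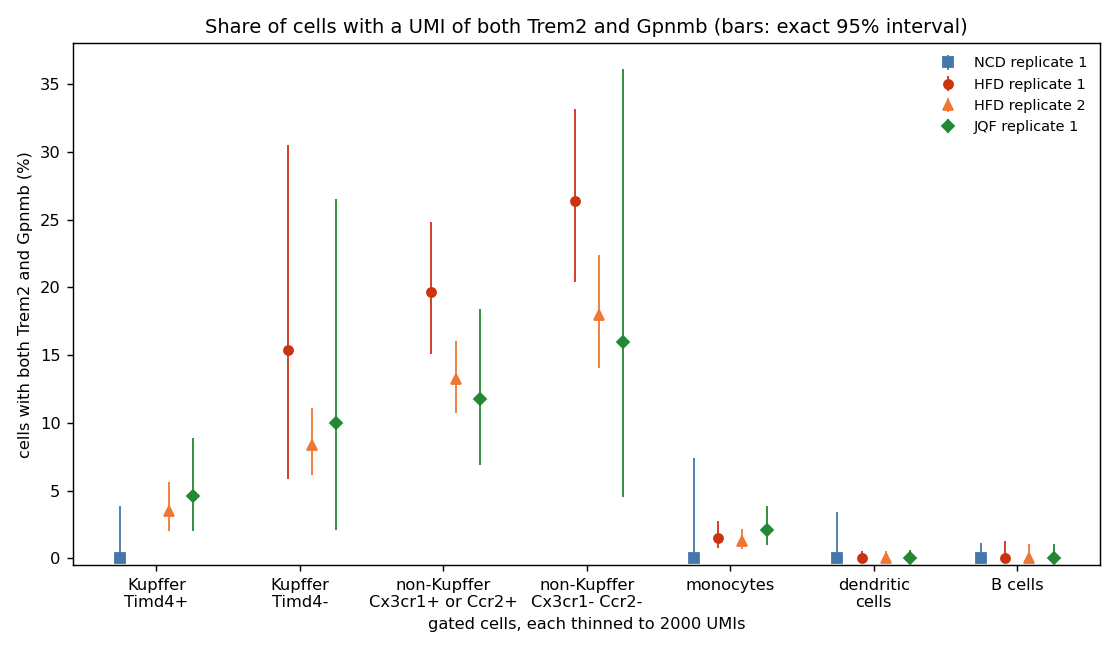
Share of cells with a UMI of both Trem2 and Gpnmb (percent, each cell thinned to 2000 UMIs) by cell subset and library, with exact 95% intervals as bars; subsets with under 20 cells are not drawn. In HFD replicate 2 the share is 3.52% in Timd4+ Kupffer-gated cells and 17.9% in non-Kupffer cells without Cx3cr1 and Ccr2, and it stays at or under 2.12% in monocytes.

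Cells with both genes were compared with cells that had neither, within the same 3 libraries; Trem2 and Gpnmb chose the cells and are not counted. All of the other 8 genes were higher in the cells with both, against 9.43% of 5750 genes called in either direction (edgeR, library as a block). Fabp4 had a mean of 218 CPM in cells with both and 23.5 CPM in cells with neither (log2 fold change 3.40, SE 0.22, edgeR adjusted p = 9.72e-13), and Fabp5 1028 and 107 CPM (3.30, SE 0.18, edgeR adjusted p = 1.94e-14). Spp1 had 410 and 80.5 CPM (2.60, SE 0.19, edgeR adjusted p = 1.17e-11). The tetraspanin genes followed, Cd63 with 1062 and 254 CPM and Cd9 with 627 and 179 CPM. Lgals3 (3257 and 1129 CPM) and Lpl (2076 and 939 CPM) differed less, and Tyrobp, present in nearly every macrophage, differed least (2158 and 1796 CPM, log2 fold change 0.30, SE 0.10, edgeR adjusted p = 0.0459) and lost its call in 12 of 13 alternatives.

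The cells with both genes were also the deeper ones before thinning. Their median was 18275.5, 16149 and 18900 UMIs in HFD replicate 1, HFD replicate 2 and JQF, against 11440.5, 11260 and 12026 UMIs in cells with neither. Kupffer-gated cells were also a smaller share of them, as given above. The part of RNA content, of joined cells or of the Kupffer-gated share in this contrast was not tested. Its fit, from 3 libraries, borrowed 27.77 degrees of freedom from other genes, so its small p-values are no measure of a clearer difference.

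**Figure D5:**
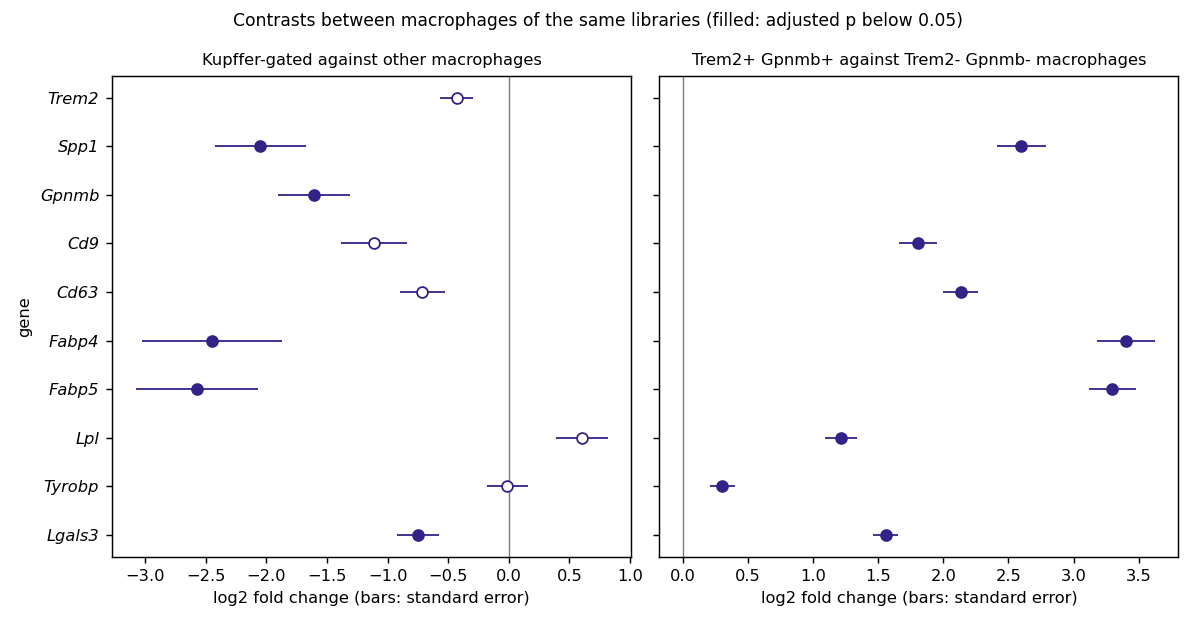
Fitted log2 fold changes with standard errors (bars) between macrophages of the same libraries: Kupffer-gated against other macrophages (left) and cells with both Trem2 and Gpnmb against cells with neither (right, where the pair itself is not drawn); filled points had an adjusted p below 0.05. On the left 5 genes are filled and lower, down to −2.58 for Fabp5, and on the right all 8 genes are filled and higher, up to 3.40 for Fabp4.

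In the HFD and JQF libraries, macrophages with a Gpnmb UMI more often had a UMI of most of the other genes. Among HFD macrophages with a Gpnmb UMI, 62.2% (replicate 1) and 51.5% (replicate 2) had a Trem2 UMI, against 32.5% and 25.8% of those without, and in JQF 64.6% against 23.3%. For Cd63 the shares were 73.3% against 38.8%, 69.1% against 30.2% and 75.0% against 26.8% in the same order. For Spp1 they were 25.0% against 9.85%, 22.3% against 5.37% and 16.7% against 4.10%. Exceptions were Lpl in JQF, 52.1% against 52.7%, and Tyrobp in HFD replicate 2, 94.6% against 95.4%. NCD had 1 thinned macrophage with a Gpnmb UMI. These shares describe cells of 1 library each and carry no test.

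At 2000 UMIs per cell, few cells showed nearly the whole set. Genes at low levels are missed in many cells at that depth, so these shares do not count the cells that express them. The share with both Trem2 and Gpnmb alone was 10.6% in HFD replicate 2 at 2000 UMIs and 33.2% unthinned. The number of genes detected was not counted unthinned. At least 8 of the 10 genes were detected in 0% of thinned NCD macrophages. The share was 11.3% and 5.13% in the HFD libraries and 1.37% in the JQF library. The mean number detected per macrophage was 2.21 for NCD, 4.58 and 3.88 for HFD and 3.33 for JQF, against 1.90 to 2.88 in monocytes, 1.51 to 2.08 in dendritic cells and 0.0903 to 0.299 in B cells. The tenth of thinned macrophages with the most UMIs of a gene held 45.9%, 53.9% and 54.1% of all Trem2 UMIs in HFD replicate 1, HFD replicate 2 and JQF. For Gpnmb that share was 58.2%, 75.2% and 91.7%, and for Tyrobp 24.8%, 22.8% and 23.0%. Such a share rises as UMIs get fewer, and it was 100% for Spp1 in HFD replicate 2 and JQF. Gpnmb had 510, 843 and 133 UMIs in 515, 1990 and 365 cells, against 1832, 7860 and 1328 for Tyrobp. The shares are therefore not compared between genes or libraries.

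Related genes from lists of the same pathways showed which neighbours moved with the set. Over all genes 4.35% were called higher and 3.40% lower in HFD than in NCD macrophages. Of 18 lysosomal genes, 4 were higher and 0 lower, led by Atp6v0d2, a proton pump subunit (mean 90.4 CPM in HFD and 4.30 CPM in NCD, log2 fold change 4.47, SE 0.43, edgeR adjusted p = 0.0318), with the protease gene Ctsd at 1.38 and Pld3 at 1.34. Of 14 genes of matrix and repair, 4 were higher and 0 lower, among them Mmp12, the macrophage elastase (1099 and 137 CPM, log2 fold change 3.10, SE 0.25, edgeR adjusted p = 0.0289), and the annexin genes Anxa1 and Anxa2 (3.96 and 3.86). Of 19 further genes of lipid uptake and release, 1 passed, the lipid droplet gene Plin2 (970 and 407 CPM, log2 fold change 1.34, SE 0.22, edgeR adjusted p = 0.0445).

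In the remaining lists the same contrast gave few calls, to be read against the 7.75% of all genes called in either direction. Of 14 genes listed under TREM2 receptor signalling, 2 were higher, Ms4a7 (2.17) and Ms4a6c (1.22). The other genes of that list, among them Syk, Plcg2 and Inpp5d, were not called. Of 6 osteopontin receptor genes tested, 1 was higher, the integrin gene Itgb5 (1.52). Of the other 8 tetraspanin genes, 1 was lower, Cd37 (−1.06), and of 8 other genes of disease-associated microglia, 1 was higher, the integrin gene Itgax (2.66). The other 4 fatty acid binding protein genes gave no call. The median log2 fold change was 0.48 for the lysosomal list, 0.69 for matrix and repair, 0.19 for lipid uptake and release, 0.17 for TREM2 receptor signalling, 1.11 for the microglial genes and 1.84 for the fatty acid binding family, against 0.07 over all genes. It was −0.14 for osteopontin receptors and −0.19 for tetraspanins.

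In monocytes, where 7.43% of all genes were called higher and 8.25% lower, 6 of 18 lysosomal genes were higher in HFD, Ctsd by 2.00. The lipid list split, with 2 of 19 higher, Plin2 (1.29) and the nuclear receptor gene Nr1h3 (1.14), and 3 lower, among them the fatty acid receptor gene Cd36 (−2.80) and the nuclear receptor gene Pparg (−2.79), beside the smaller share of nonclassical cells in HFD given above. Of 13 matrix and repair genes tested in monocytes 2 were higher and 1 lower, and of 7 osteopontin receptor genes 1 and 2. Of 14 TREM2 signalling genes 2 were higher and 1 lower, and of 8 microglial genes 2 and 1. For JQF against HFD macrophages the edgeR test called none of the list genes. In monocytes and in dendritic cells it called 1 of 13 matrix and repair genes each, higher in JQF, against 0.720% and 0.852% of all genes.

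In the cells with both Trem2 and Gpnmb, 4.43% of all genes were called higher and 4.99% lower than in cells with neither. Of 18 lysosomal genes, 11 were higher and 0 lower, including Atp6v0d2 (214 and 20.8 CPM, log2 fold change 3.43), Ctsd (4961 and 1919 CPM, 1.40) and Pld3 (1.08). Of 16 lipid genes tested, 7 were higher, among them the fatty acid receptor gene Cd36 (1315 and 639 CPM, log2 fold change 1.08), Pparg (0.83) and the lysosomal lipase gene Lipa (0.80). Of 11 matrix and repair genes tested, 5 were higher, with Anxa1 at 2.68 and Mmp12 at 1.42. Of 14 genes of TREM2 receptor signalling, 1 was higher, Ms4a7 (1.47), and 2 were lower, the kinase genes Lyn (−0.69) and Pik3cd (−0.64), with a median of −0.31. Of 6 other microglial genes tested, 3 were higher, Itgax (1.00), Lyz2 (0.90) and Cd68 (0.68). The tetraspanin gene Cd81 (−1.12) and the integrin genes Itga4 (−0.78) and Itga9 (−0.66) were lower, and the 2 fatty acid binding protein genes tested were not called.

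The genes whose level ran most like Trem2 over 36 sums of at least 50 cells (1 library and cell class each) were Lpl (Pearson r of log2(CPM + 1) 0.945), Ms4a7 (0.935), Ctsa (0.928), Ear2 (0.927) and the macrophage gate marker Fcgr1 (0.919), among 8972 genes compared. For Gpnmb they were Trem2 (0.908) and Lpl (0.864), and for Spp1 they were Syngr1 (0.840), the keratin gene Krt7 (0.798) and Slc9a4 (0.787). Sums from the same library share their depth and free RNA, so these values are descriptions only.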

How the data were processed

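Livers of 4 libraries (NCD 1, HFD 2, JQF 1) were profiled with a droplet 3′ kit. The authors deposited UMI counts per gene and barcode as filtered and raw matrices on mm10 (GRCm38), made with Cell Ranger (6.0.1 per the submitters' processing notes, which also name Seurat 4.0.3); these counts carried no normalization. The filter on genes and mitochondrial share, the gates and all values were computed from them with Python 3.11.15 (numpy 2.4.6, scipy 1.17.1, pandas 2.3.3).

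The 10 genes, the related gene lists and the tests were chosen with earlier results of these data known, and the gate thresholds after marker counts were seen. Macrophages had UMIs of at least 6 of 8 macrophage markers, among them Adgre1, Csf1r and the C1q genes, and at least 10 C1q UMIs, and Kupffer-gated ones at least 4 of Clec4f, Timd4, Vsig4, Cd5l, Folr2 and Marco. Monocytes had 3 of 6 classical or nonclassical markers. Dendritic cells had 4 of 6 type 1, 3 of 5 type 2 or 3 of 4 mature markers. Because gates count detected markers, deeper cells pass more easily. No doublet caller was used in the main analysis. The macrophage gate took precedence over the monocyte and type 2 dendritic gates, so cells meeting it and either of these counted as macrophages. T cell gating took precedence over NK gating, and T, NK, B and plasma cell gating over monocyte gating. Cells that still met several gates were left out (573 cells in NCD, 9.59%), and Scrublet (scanpy 1.11.5) was an alternative. UMIs outside called barcodes were 6.68 to 10.5% of each library.

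UMIs were summed per library and cell class and tested across all genes with edgeR 4.0.16 (R 4.3.3, quasi-likelihood, TMM scaling, Benjamini-Hochberg adjustment, threshold 0.05), with the library as a block between classes of the same libraries. Between groups, residual variation came from the HFD pair, and NCD and JQF, with 1 library each, were taken to vary to the same extent. The p-values measure only the spread between these samples, which nothing in the labels ties to more than the liver samples named. A level with no UMI was bounded by a floor of 3 UMIs. On simulated counts of the same layout the HFD against NCD macrophage test recovered 69% of 4-fold and 7% of 2-fold changes with 1.30% false calls. These counts had the same dispersion for every gene, unlike the data, so the shares need not hold for the data. DESeq2 1.42.0, no TMM scaling, no gene filter, other gates and thinning depths and left-out libraries were alternatives. All 10 genes are reported, and of each related list up to 3 genes called in the contrast at 50 CPM or more in the higher group, largest changes first. Sequences are from RefSeq tables, positions from GENCODE. The paper's per-cell tests were not used.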

Additional observations from a re-analysis of the deposited data

Results flagged for a closer look

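In 5 cases the JQF level (CPM) lay above both HFD libraries in 1 cell class and below both in another; the differences were not tested. Cd63 had a log2 fold change of −0.45 in macrophages and 0.82 in monocytes, a difference of −1.27. Against dendritic cells, where Cd63 was at −0.84, the monocyte value differed by 1.66. Lpl was at −0.20 in macrophages and 1.16 in monocytes, a difference of −1.36. Cd9 was at 0.66 in monocytes and −0.04 in dendritic cells, a difference of 0.70. Lgals3 was at 0.28 in monocytes and −0.06 in dendritic cells, a difference of 0.35. The small dendritic cell values of Cd9 and Lgals3 changed sign without 1 HFD library (0.0180 without replicate 2 and 0.0133 without replicate 1). Genes with fewer than 3 UMIs in a library were left out, among them Gpnmb, at 0.69 in monocytes and −3.00 in dendritic cells. None of these changes passed the edgeR test in its own class (0 of 10 genes in each), and the classes come from the same 4 libraries. With at most 2 libraries per group, no library could be checked as lying apart from its own group.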

How the results depend on the processing

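Of 88 counts of called genes among the 10 under an alternative, 73 stayed within 1.5 times the main count; of 969 values for single genes, 844 either kept direction and side of the threshold or, where leaving out an HFD library left no residual degrees of freedom, moved by less than 1 SE, and 17 changed direction in a fit with a test. The cause of these differences was not tested. For JQF against HFD macrophages, where the main count was 0, it was 1 without a gene filter, 1 with DESeq2 and 4 in Kupffer-gated cells alone. For JQF against HFD monocytes it was 3 without a gene filter and 2 with gates needing 1 more marker. For HFD against NCD dendritic cells it was 2 without a gene filter and 2 with DESeq2. Macrophages against monocytes gave 7 without a gene filter and 4 to 8 leaving out 1 library, macrophages against dendritic cells 8 and 5 to 9. Kupffer-gated against other macrophages gave 8 without a gene filter, 3 with 1 more marker and 1 to 8 leaving out 1 library.

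The share of macrophages with both Trem2 and Gpnmb at 1000, 4000 and all UMIs was 13.01%, 37.4% and 52.2% in HFD replicate 1, 4.67%, 19.7% and 33.2% in HFD replicate 2 (12.2% after Scrublet) and 3.20%, 14.6% and 20.0% in JQF (5.98% after Scrublet). The Scrublet values also used a new random draw of UMIs. The 17 log2 values that changed direction in a fit with a test, none with an adjusted p (edgeR) below 0.05, were as follows. For JQF against HFD macrophages Cd9 was −0.53 and Lpl 0.0815 in Kupffer-gated cells, and Fabp4 0.42, Fabp5 0.31, Tyrobp 0.18 and Lgals3 0.0522 in non-Kupffer cells, alternatives chosen after seeing the data. With 1 more marker, JQF against HFD gave Fabp4 0.0518 and Fabp5 −0.0173 in monocytes and Cd9 0.00096 in dendritic cells. In dendritic cells without scaling, Cd9 was 0.0228 (HFD against NCD), Spp1 −0.0281 and Fabp5 −0.00571 (JQF against HFD), and Lgals3 was 0.0450 after Scrublet. Leaving out 1 library, Cd9 ranged from −0.29 (without HFD replicate 1) to 0.58 against monocytes and from −0.82 to 0.19 (without NCD) against dendritic cells, Fabp5 from −0.15 (without HFD replicate 1) to 0.48 against dendritic cells, and Tyrobp from −0.0812 to 0.12 (without JQF) in Kupffer-gated against other macrophages. Values with no test, from leaving out an HFD library, changed sign too. In macrophages, JQF against HFD, these were Cd9 (−0.20), Tyrobp (0.0734), Fabp4 (0.0482), Fabp5 (0.0244), Lgals3 (0.000667) and Gpnmb (0.07), in monocytes Fabp4 (0.76), Trem2 (0.05) and Spp1 (0.10), and in dendritic cells Spp1 (−0.0784), Cd9 (0.0180), Lgals3 (0.0133) and Lpl (−0.15). In monocytes Fabp4 changed sign for HFD against NCD as well (−0.36).

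Over all genes, counts of calls that moved by more than 1.5 times were these. HFD against NCD macrophages gave 993 (557 higher, 436 lower), 2056 without scaling (912 higher, 1144 lower), 3780 without a gene filter, 1545 after Scrublet and 1795 in Kupffer-gated cells. JQF against HFD macrophages gave 1, and 34, 735 and 26 without scaling, without a filter and with DESeq2, 230 in Kupffer-gated and 266 in non-Kupffer cells. HFD against NCD gave 1960 in monocytes (833 with DESeq2) and 3436 in dendritic cells (1322 without a filter, 1192 with DESeq2). JQF against HFD monocytes gave 90, and 405 without a filter, 14 with DESeq2, 49 after Scrublet, 235 with 1 more marker and 136 without NCD. JQF against HFD dendritic cells gave 117, and 0 without scaling or without a filter, 29 with DESeq2, 10 after Scrublet and 1 with 1 more marker. Without HFD replicate 2, macrophages gave 2394 against monocytes (4692 with it) and 4458 against dendritic cells (6753). Kupffer-gated against other macrophages gave 819, and 1963 without a filter, 406 with 1 more marker and 223 to 1470 leaving out 1 library. Cells with both Trem2 and Gpnmb gave 542, and 144 with DESeq2, 338 with the looser cell filter, 135 at 1000 UMIs, 975 unthinned and 220 without HFD replicate 2. The looser filter kept the same numbers of thinned macrophages (515, 1990 and 365) but drew their UMIs anew. Nothing in the labels pairs libraries across the groups compared, so no paired analysis was made. Leaving out an HFD library leaves no replicate, so those values carry no test. Cell numbers were lowest in NCD, with 108 macrophages and 48 monocytes. Its cells were the deepest over the whole library (median 13081 UMIs) and in macrophages (16612), but not in monocytes (12994.5 against 13956.5 in JQF).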

Other observations

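Outside the myeloid cells, Fabp5 and Cd9 were higher in both HFD endothelial sums than in NCD, as Fabp4 was. Fabp5 stood at 79.2 CPM in NCD, 409 and 502 CPM in HFD and 328 CPM in JQF endothelial cells, and Cd9 at 111 CPM, 490 and 346 CPM and 280 CPM. In each of these the JQF level lay between NCD and the lower HFD library. Neutrophils held Tyrobp at 3178 CPM in NCD, 3731 and 4643 CPM in HFD and 3871 CPM in JQF. T cells of the NCD library held Spp1 at 77.1 CPM, a value above the 57.3 CPM of free Spp1 RNA in that library. These levels were not tested.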
